A study of Mus musculus with 4 samples.

Results

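The cytosolic ribosomal protein genes were followed across 4 RNA sequencing libraries, each made from CD4+ T cells of mouse spleen. They were taken by symbol: Rpl or Rps followed by a digit, together with Rplp0, Rplp1, Rplp2 and Rpsa, without symbols marked as pseudogenes, ribosomal S6 kinases or Rps19bp1. The name rule took 85 of 21937 symbols, and 80 of them had a mean of 10 or more reads over the 4 libraries and are the members described here, 48 of the large subunit and 32 of the small subunit. Among the 5 others were Rpl10l and Rpl26, listed at 0 in every library, Rpl3l (mean 0.25 reads) and Rps23 (2.25). Just inside the limit stood Rpl39l (mean 21.8), Rps27 (41.8) and Rps4y2 (59.2). Rpl26 and Rps23 encode core parts of every ribosome, so rows this low, like those of Rps27, Rpl30 (mean 75.8) and Rpl34 (114), cannot be read as the levels of those mRNAs. Why they are low was not tested.

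All cells came from B6 animals aged 6 weeks and had been stimulated with PMA, which activates protein kinase C, and ionomycin, which lets calcium in, so that the T cell receptor is bypassed. There was 1 library for each of 4 genotypes: a library labelled as the double knockout (DKO) of Itch and WWP2, an Itch KO (Itchf/f Cd4cre, a floxed allele cut by a Cre that is driven from Cd4 in T cells), a WWP2-/- library, here WWP2 KO, and Wild type. Itch and WWP2 are ubiquitin ligases of the NEDD4 family. By its labels the design asks what each does in activated cells, alone and together. The sources used here do not give the number of animals behind a library or the length of the stimulation. With 1 library per genotype no difference between libraries has a replicate check, and intervals cover counting error only.

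Depth was alike, at 17130747 to 17990392 counted reads. Wwp2 had 4 reads in the WWP2 KO library, against 1332 in Itch KO and 1363 in wild type. It had 1135 reads in the library labelled double KO, which goes against that label, so each difference shown by it belongs to that library and not to a known genotype. Itch reads (1914 to 2389) check neither Itch label, because a floxed gene can still be transcribed and counted outside its deleted exons. The 7 CD4+ T cell markers examined were read in every library, summing to 1915 CPM, that is reads after TMM scaling to an equal library size, in the library labelled double KO, 1704 CPM in Itch KO, 1769 CPM in WWP2 KO, against 1856 CPM in wild type. Single markers differed by more than this sum: Cd4 had 508 CPM in the library labelled double KO and 235 in wild type, Cd3g 167 and 76.1, and Cd5 295 and 697. The 31 markers of other cells examined summed to 17.2, 31.4, 19.6 and 27.0 CPM in the same order, with 11 to 14 of them at 0, among them Hba-a1, S100a8, Pf4 and Fcer1a. Their part in the results below was not tested.

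Each ribosome joins a small subunit, which reads the mRNA, to a large subunit, which forms the peptide bonds, and each subunit holds 1 copy of most of its proteins. In mammals the mRNAs of these proteins begin with a terminal oligopyrimidine (TOP) tract, a C followed by a run of C and T, through which mTORC1 and Larp1 set how much of them is translated. Counts of mRNA do not measure how much of it is translated. Lymphocytes that leave rest make more ribosomes, for which Myc, RNA polymerase I and the nucleolar assembly factors are needed.

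Start regions were examined for what members share besides the name. RefSeq (GRCm38.p6) gave a promoter for 60 of the 80 members. In the window from 50 bases before the annotated start to 30 bases from it on, the pyrimidine motif CTTTC lay on the transcribed-sense strand in 33.3% of members (20 of 60) and in 10.3% of all 27025 promoters. On the other strand it lay in 11.7% of members and 9.37% of all promoters. The letters CGGAAG, the core that ETS family factors bind, lay on either strand of the whole promoter of 300 bases in 70% of members and in 17.2% of all promoters. TATAAA lay on either strand of the whole promoter in 10% of members and in 14.2% of all promoters. In the window around the start its shares went the other way, at 6.67% (4 of 60) and 4.61%. These 3 motifs were picked after the shares of 14 were seen, all searched on both strands. The other pyrimidine words were CTTTT as well as CTTCC together with CTCTTTC besides TCTTTC followed by CCTTT. The other ETS words were GGAAGT as well as ACTTCCG together with TTTCCGG, and AAGATGG besides GCAATGG and the palindrome of NRF1 completed the search. Several of these words contain or overlap one another. A match is a description of letters, not a bound site.

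The windows of 8 members whose values are described below are shown 5′ to 3′, the annotated start being base 51 of 80, with CTTTC as read here and CGGAAG (or its complement CTTCCG) in capitals. Rpl5 and Rpl13a held the pyrimidine motif, Rpl36a, Rps6 and Rpl41 held the ETS core, Rpl39l held CTTTC at 2 places before its start, and Rpl7l1 and Rps9 held neither:
Rpl5: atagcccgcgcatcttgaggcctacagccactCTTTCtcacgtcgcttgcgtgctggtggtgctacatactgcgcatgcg
Rpl13a: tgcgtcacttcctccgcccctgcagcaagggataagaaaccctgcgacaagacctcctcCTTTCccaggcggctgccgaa
Rpl36a: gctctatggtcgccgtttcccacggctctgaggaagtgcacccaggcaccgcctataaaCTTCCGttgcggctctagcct
Rps6: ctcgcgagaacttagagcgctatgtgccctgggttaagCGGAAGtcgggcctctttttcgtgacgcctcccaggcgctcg
Rpl41: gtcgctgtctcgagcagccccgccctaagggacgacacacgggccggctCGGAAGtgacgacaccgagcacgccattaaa
Rpl39l: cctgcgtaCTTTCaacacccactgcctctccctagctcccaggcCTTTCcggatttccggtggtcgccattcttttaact
Rpl7l1: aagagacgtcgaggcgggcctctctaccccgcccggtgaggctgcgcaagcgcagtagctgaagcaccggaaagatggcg
Rps9: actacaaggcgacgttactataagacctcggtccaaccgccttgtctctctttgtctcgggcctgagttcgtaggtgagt

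In GRCm38.p6 they lie at chr5:107900478-107900557 on the plus strand for Rpl5, chr7:45128716-45128795 on the minus strand for Rpl13a, chrX:134585604-134585683 on the plus strand for Rpl36a and chr4:86857338-86857417 on the minus strand for Rps6. The others lie at chr10:128549139-128549218 on the minus strand for Rpl41, chr16:10170178-10170257 on the plus strand for Rpl39l, chr17:46782627-46782706 on the minus strand for Rpl7l1 and chr7:3703991-3704070 on the plus strand for Rps9. The reads themselves had been placed on mm9.

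Ribosomal protein mRNAs were a large part of the reads, and the part was smallest in the library labelled double KO and largest in wild type. The members took 6.74% of all counted reads in the library labelled double KO (exact 95% interval 6.72 to 6.75), 6.87% in Itch KO (6.86 to 6.89), 7.25% in WWP2 KO (7.24 to 7.26), against 7.78% in wild type (7.77 to 7.80). The 4 intervals do not overlap, which speaks of counting error and not of animals. Large subunit genes took 3.92%, 4.0%, 4.17% and 4.50% of the reads in that order, and small subunit genes 2.82%, 2.88%, 3.08% and 3.28%. Both subunits thus had the same order of libraries. In bulk samples, fewer cells of a type and less RNA per cell cannot be told apart.

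**Figure D1:**
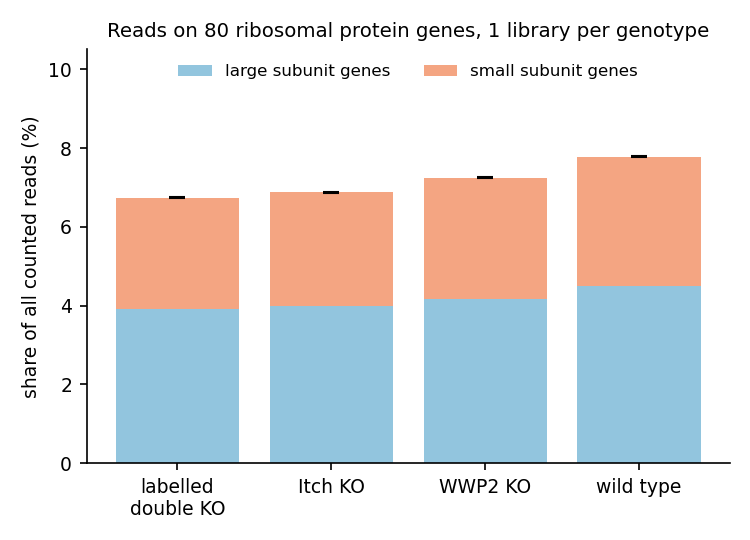
Share of all counted reads (%) on the 80 members in each library, stacked by subunit; the bar on top of each column is the exact 95% counting interval of the sum. The column is lowest for the library labelled double KO (6.74%) and highest for wild type (7.78%).

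Within the set, reads were spread over many genes. On average 73 members had 1000 or more reads, and 32 were among the 100 genes with most reads in the table. The most read were Rpsa, a protein of the small subunit (mean 52244 reads), Rplp0, the base of the acidic stalk that recruits elongation factors (49688), Rpl4 (42264), Rpl13a (36303) and Rpl5 (35616). Levels between genes were compared as CPM per kilobase of coding length, for the 79 members with a coding length in GENCODE. Rpl41, whose coding sequence has 75 bases without the stop codon, stood first at 9421, followed by the stalk gene Rplp1 at 3714, Rpl13a at 3395 and Rpsa at 3353. Coding length leaves out untranslated ends, on which reads can also fall, so a short coding sequence can raise this value. By mean reads Rpl41 was the 46th member. Rps27a, which encodes ubiquitin fused to a small subunit protein, stood at 1809 as the 40th. The 8 lowest were Rpl7l1 at 299, Rpl36 at 274, Rps27l at 190, Rpl22l1 at 124, Rpl34 at 18.6, Rpl30 at 12.5, Rps27 at 9.38 and Rpl39l at 7.93, of which 4 are core genes and 4 are paralogs.

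The first comparison sets the library labelled double KO beside wild type. The label names loss of both ligases, which the Wwp2 reads of that library go against. Counts were scaled by the trimmed mean of M values (TMM), and ratios are log2 values to which a prior count of 2 was added. Of 80 members, 75 were below 0 (93.75%, against 50.6% of the 11197 genes with the same minimum of reads). The member median was -0.31 (quartiles -0.40 and -0.19), against -0.01 for all of those genes. Summed over members the level was 65206 CPM in the library labelled double KO and 79127 CPM in wild type, 0.824-fold (95% counting interval 0.822 to 0.826). A member was called higher or lower when the higher of the 2 levels was at least 25% above the lower and the counting interval of the fold excluded 1. By that rule 39 members were lower, 48.8% of them, while 27.5% of all genes were, and 2 were higher (2.5% of members, 29.7% of all genes). At 2-fold, 0 members were lower (7.03% of all genes) and the same 2, Rpl39l and Rps4y2, were higher (14.6% of all genes). With the library totals alone as the scale, 21 members were lower, and at 1.5-fold 1 was. The count therefore depends on the scale and on where the line is put. Under TMM, 16 members lay within a log2 distance of 0.05 of the 25% line. The shares of all genes under these other settings are not given here.

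**Figure D2:**
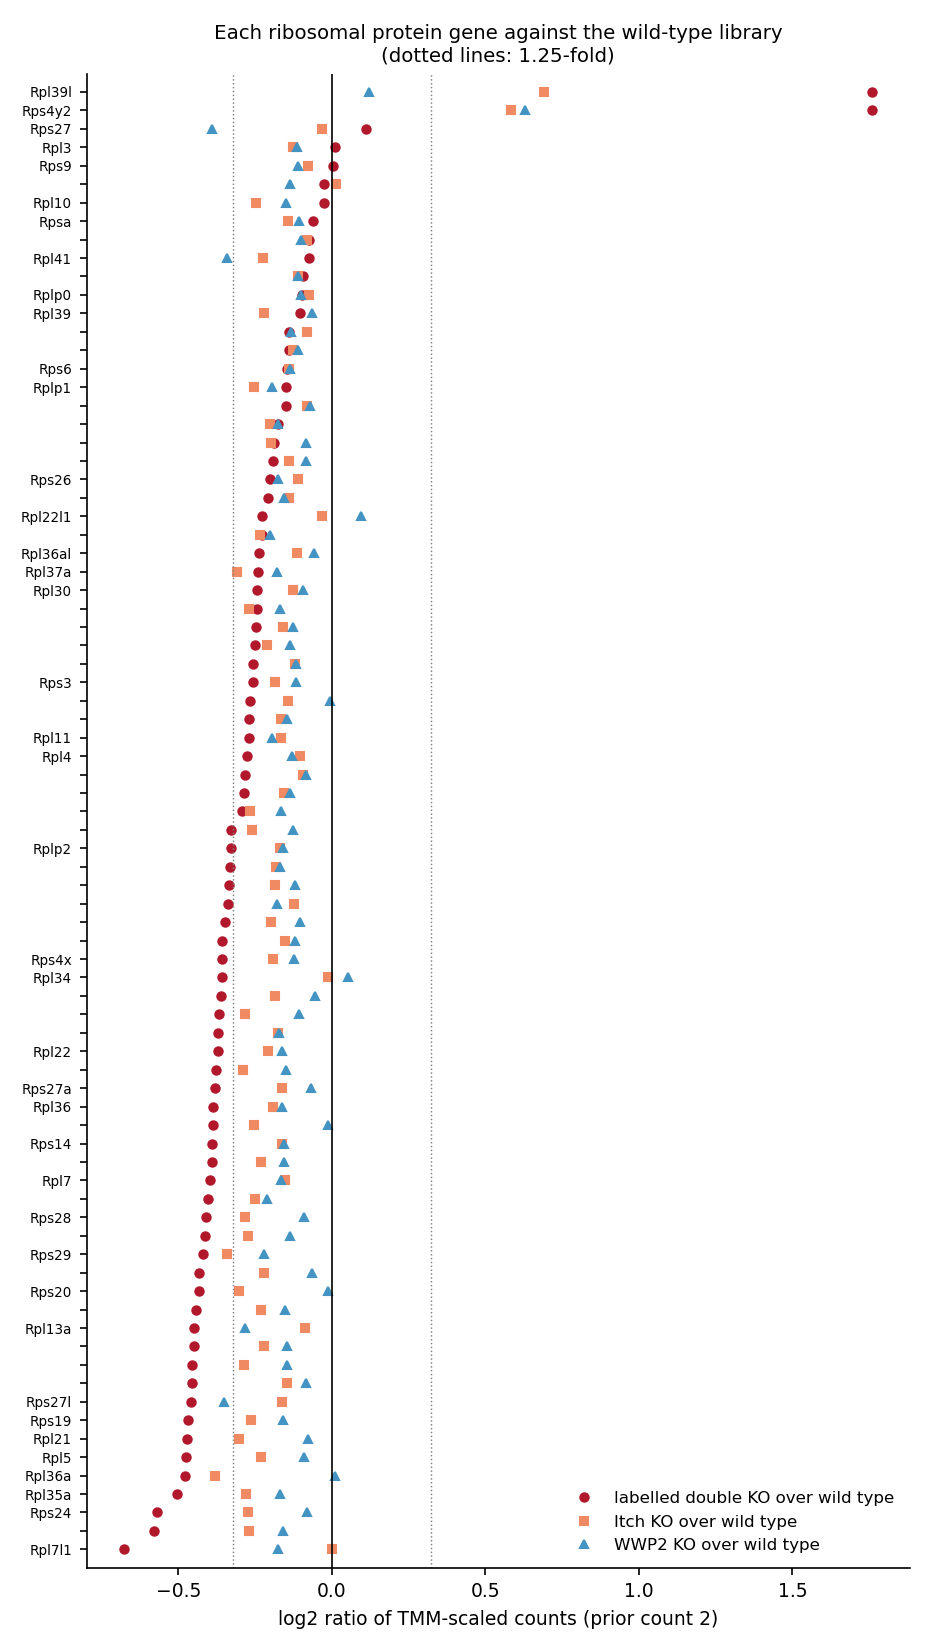
Log2 ratio to the wild-type library of each of the 80 members in the library labelled double KO (circles), Itch KO (squares) and WWP2 KO (triangles), ordered by the first, with the symbols of members described in the text; dotted lines mark the higher level being 25% above the lower, on either side. Most symbols lie left of 0, the circles reach from -0.68 for Rpl7l1 to 1.76 for Rpl39l, and the triangles have the median nearest 0 (-0.13).

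The lowest members were spread over both subunits. Rpl7l1, a paralog of the large subunit gene Rpl7, had 2920 reads in the library labelled double KO, 4358 in Itch KO, 3817 in WWP2 KO, against 4357 in wild type. Its level in the library labelled double KO was 0.625-fold that in wild type (0.596 to 0.655), log2 -0.68, and the other libraries lay well above. Rps24, a small subunit gene that is mutated in human Diamond-Blackfan anaemia, had 17220, 19723, 22287 and 23828 reads in that order, with a ratio of -0.57 (0.674-fold, 0.661 to 0.688). The library labelled double KO was the lowest and wild type the highest. Rpl35a, another gene of that disease, had 8962, 9762, 10413 and 11852 reads and a ratio of -0.50 (0.705-fold, 0.686 to 0.725). Rpl36a was at -0.48 and Rpl5, which with Rpl11 binds Mdm2 when ribosome assembly stalls, at -0.48 on 30927, 34166, 37264 and 40105 reads.

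At the upper end, a few core members lay close to wild type. Rpl3, which lies near the peptidyl transferase centre, had 27958 reads in the library labelled double KO, 23708 in Itch KO, 23646 in WWP2 KO, against 25901 in wild type. Its ratio to wild type was 0.01 (1.01-fold, 0.990 to 1.02) in the first, and both single knockouts lay below wild type. Rps9, a small subunit protein, was at 0.00 (interval of the fold 0.986 to 1.02) on 26193, 23089, 22300 and 24357 reads. Rps27, on 50, 42, 32 and 43 reads, was at 0.11 (1.08-fold, 0.707 to 1.67), too few reads for a direction. Among the genes described whatever their values, the stalk genes Rplp0, Rplp1 and Rplp2 were at -0.10, -0.15 and -0.33. With library totals as the scale, Rpsa stood at 0.01. Under TMM Rpsa was at -0.06, Rps6, the substrate of the S6 kinases, at -0.15, and Rps3 at -0.26. Rpl11 was at -0.27, Rps26 at -0.20, Rps14 at -0.39, Rps19, the gene most often mutated in Diamond-Blackfan anaemia, at -0.47, and Rps27a at -0.38. Members of 1 complex thus differed from one another by more than their counting error.

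The 2 members called higher are not core genes. Rpl39l, a paralog of Rpl39 known for its expression in testis, had 45 reads in the library labelled double KO, 19 in Itch KO, 12 in WWP2 KO, against 11 in wild type. That is 3.82-fold the wild-type level (1.94 to 8.18), 3.46-fold the WWP2 KO level (1.80 to 7.18) and 2.21-fold the Itch KO level (1.27 to 4.0). Rps4y2, which RefSeq carries as the transcribed pseudogene Rps4l on chromosome 6, had 114, 46, 47 and 30 reads in the same order. It stood at 3.55-fold the wild-type level (2.35 to 5.49), with Itch KO (1.53-fold, 0.947 to 2.51) and WWP2 KO (1.58-fold, 0.981 to 2.59) between. For both genes the library labelled double KO lay above each of the others. Rpl39l made up 0.786% of the reads of the pair Rpl39 and Rpl39l in that library (exact interval 0.574 to 1.05) and 0.193% in wild type (0.0963 to 0.345). Close copies can share or lose reads, so the assignment is uncertain for both.

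**Figure D3:**
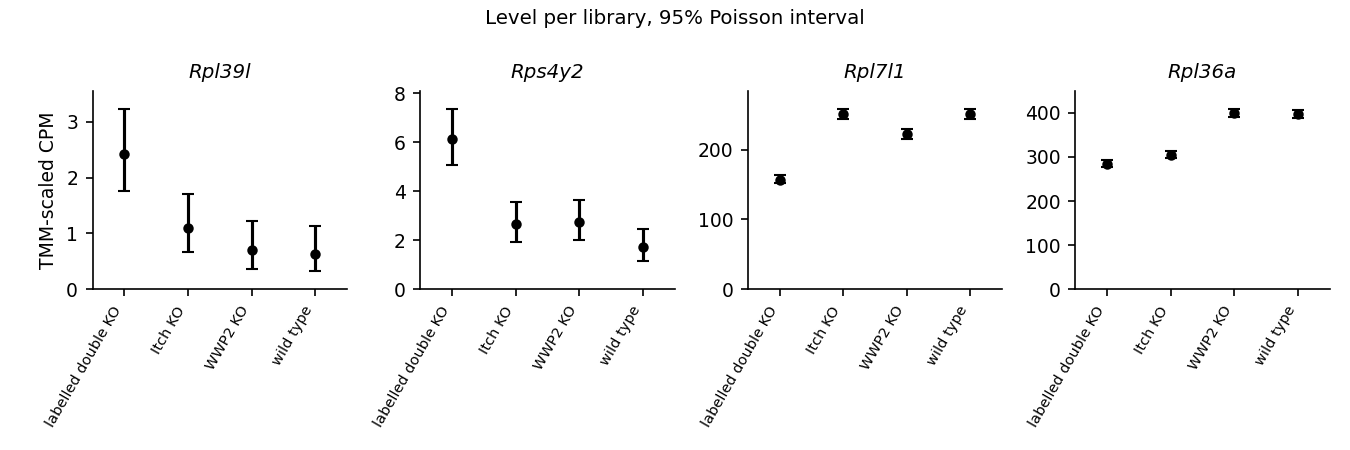
TMM-scaled CPM per library of Rpl39l, Rps4y2, Rpl7l1 and Rpl36a, with exact Poisson 95% intervals; each vertical axis starts at 0. Rpl39l and Rps4y2 were highest (2.42 and 6.13 CPM) and Rpl7l1 lowest (157 CPM) in the library labelled double KO, and Rpl36a was lower in that library and in Itch KO (285 and 305 CPM) than in WWP2 KO and wild type (400 and 397 CPM).

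The Itch KO library asks, by its label, about Itch alone. It was lower than wild type for 77 of 80 members (96.25%, against 52.7% of all genes), by little. The median log2 ratio was -0.18 (quartiles -0.25 and -0.13), against -0.02 for all genes, and the summed level was 69910 CPM in Itch KO and 79127 in wild type, 0.884-fold (0.881 to 0.886). Only 2 members passed the 25% rule, both lower (2.5% of members, against 12.1% of all genes), and 0 were higher (13.8% of all genes), so calls were fewer than in the background while 77 members lay on 1 side. At 2-fold 0 members were called, against 5.76% of all genes higher and 1.42% lower. Rpl36a, a large subunit gene, had 5288 reads in Itch KO and 6883 in wild type, 0.768-fold (0.741 to 0.796). Rps29, a small zinc-binding protein of the small subunit, had 6746 and 8549 reads, 0.789-fold (0.764 to 0.814). Next came Rpl37a at -0.31, with Rps20 and Rpl21 both at -0.30. The highest were Rps4y2 at 0.58 and Rpl39l at 0.69, both with intervals that include 1. Rpl7l1, the lowest member in the library labelled double KO, was level here on 4358 and 4357 reads.

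In the WWP2 KO library, which asks about WWP2 alone, 75 of 80 members were below 0 (93.75%, against 50.8% of all genes). The median was -0.13 (quartiles -0.16 and -0.09), against -0.00 for all genes, and the summed level was 72420 CPM in WWP2 KO and 79127 in wild type, 0.915-fold (0.913 to 0.917). Again 2 members passed as lower (2.5%, against 2.46% of all genes) and 0 as higher (4.35% of all genes), a share at the background. At 2-fold 0 members were called, against 0.84% of all genes higher and 0.357% lower. The 2 lower ones were Rps27l, a paralog of Rps27 that p53 induces, with 756 and 977 reads (0.783-fold, 0.711 to 0.861), and Rpl41, with 10640 and 13627 reads (0.790-fold, 0.770 to 0.810). Rpl13a was at -0.28 and Rps27 at -0.39 on 32 and 43 reads. The highest were Rps4y2 at 0.63, Rpl39l at 0.12, Rpl22l1 at 0.09 and Rpl34 at 0.05, none called.

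These 3 comparisons share the wild-type library, so a high wild-type library and low knockout libraries cannot be told apart from them. Wild type was the highest of the 4 libraries for 71 of 80 members, 88.8%, and for 21.7% of all genes. The library labelled double KO was the lowest for 61 members, 76.2%, and for 39.2% of all genes. Scaled by the 3 other methods tried, between 66 and 70 members had wild type above the 3 others. Itch KO was the lowest for 11 members, 13.8%, and 22.7% of all genes, WWP2 KO for 6, 7.5%, and 18.6%, and wild type for 2, 2.5%, and 19.5%. The library labelled double KO was the highest for 5 members (Rpl3, Rpl39l, Rps4y2, Rps9 and Rps27), 6.25% against 40.8% of all genes. Itch KO was the highest for 1 member, against 17.3% of all genes, and WWP2 KO for 3 members (Rpl22l1, Rpl34 and Rpl36a), against 20.2%.

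The library labelled double KO was then compared with each single knockout, which leaves wild type out. Against Itch KO the member median was -0.13, while that of all genes was 0.05. Of the 80 members, 63 were below 0 (78.75%, against 46.8% of all genes). Here 2 were called lower (2.5%, against 23.9% of all genes) and 2 higher (2.5%, against 29.7%). The lower ones were Rpl7l1 at -0.68 and Rpl13a, which had 32201 reads in the library labelled double KO and 38660 in Itch KO (0.777-fold, 0.766 to 0.789). With DESeq2 size factors 4 were lower, and with library totals 1, again without a share of all genes beside them. Rpl10, a late-joining large subunit protein, lay the other way by less than the rule asks, with 20986 reads in the library labelled double KO and 16818 in Itch KO (1.16-fold, 1.14 to 1.19).

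Against WWP2 KO the member median was -0.17, against -0.02 for all genes. In that comparison 66 of 80 members were below 0 (82.5%, against 50.9% of all genes). There were 12 members called lower, 15% against 27.5% of all genes, and 2 higher, 2.5% against 29.3%. Rpl7l1 (-0.50), Rpl36a (-0.49), Rps24 (-0.49) and Rps20 (-0.42) were among the lowest. Rpl41 was higher in the library labelled double KO, with 13880 reads against 10640 in WWP2 KO (1.20-fold, 1.17 to 1.23), and did not reach the 25% rule. In both of these comparisons the 2 members past 2-fold were Rpl39l and Rps4y2, both higher, with 11% and 13.7% of all genes higher at 2-fold over Itch KO and WWP2 KO. In both, 0 members were lower at 2-fold, with 5.89% and 7.21% of all genes.

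The order of members was then compared between pairs of libraries that share none. Over the 73 members with a mean of 1000 or more reads, the ratio of Itch KO to wild type and that of the library labelled double KO to WWP2 KO had a Spearman rho of 0.46 and a Pearson r of 0.40, with 62 members below 0 in both. Over all genes tested the rho was 0.45 and the r 0.67, with 3802 of 11197 below 0 in both. For the WWP2 label, the ratio of the library labelled double KO to Itch KO and that of WWP2 KO to wild type had a rho of 0.02 over the 73 members and of 0.13 over all genes, with 58 of the 73 members and 2989 of all genes below 0 in both. The Wwp2 reads of the library labelled double KO go against the WWP2 label used here. The points share the scale factors and the library depths, and members are not independent replicates. Among these 73 members the ratios of the library labelled double KO to wild type had an SD of 0.15, against 1.13 over all genes, which include genes with few reads.

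**Figure D4:**
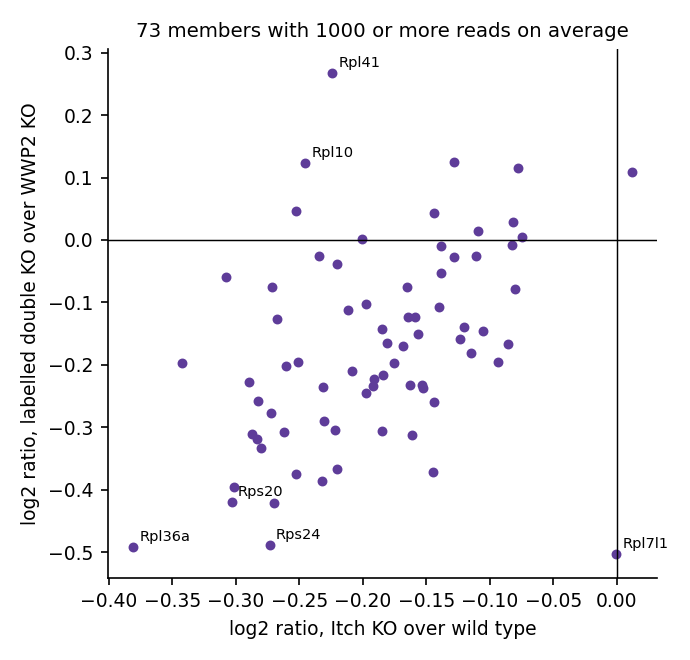
Log2 ratio of Itch KO to wild type (horizontal) and of the library labelled double KO to WWP2 KO (vertical) for the 73 members with a mean of 1000 or more reads; each point is 1 gene, and the axes share no library. In all, 62 of 73 points lie below 0 on both axes, with Rpl36a low on both axes and Rpl7l1 low on the vertical axis alone.

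A test was made by grouping libraries by their Itch label, 2 labelled as Itch deleted (the library labelled double KO and Itch KO) against 2 that are not (WWP2 KO and wild type). The reads check neither Itch label. The grouping by WWP2 label, which the Wwp2 reads go against, was not tested and served only as an added term in an alternative setting. The libraries of a group differ in their WWP2 label and are not replicates of 1 genotype. The edgeR quasi-likelihood test with Benjamini-Hochberg adjustment called 0 of 80 members at 0.05, and 1 of 11197 genes (0.00893%). Without adjustment 1 of the 80 members was under 0.05, against 13.4% of all genes. DESeq2 called 706 of the 11197 genes but 0 members. Unadjusted, 1595 genes were under 0.05 with DESeq2, among them 1 member, the same as with edgeR. That member was Rpl36a, at a log2 fold change of -0.44, with edgeR adjusted p = 0.328, lower in both libraries with an Itch KO label than in both others. Over the other settings its adjusted p was 0.0158 to 0.417, the lowest without the library labelled double KO, where Rpl36a was called (log2 -0.38) on 1 library against 2. The next were Rpl39l (1.39, edgeR adjusted p = 0.385), Rps20 (-0.36, edgeR adjusted p = 0.412), Rpl21 (-0.35, edgeR adjusted p = 0.426), Rps24 (-0.37, edgeR adjusted p = 0.451) and Rps28 (-0.30, edgeR adjusted p = 0.461). On the higher side Rps4y2 (0.97), Rps27 (0.23) and Rps9 (0.02) came after Rpl39l, with edgeR adjusted p of 0.498 to 0.958.

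Paired paralogs showed how the balance within a protein family differed. Rpl22, which in mice is needed for normal αβ T cell development, had 5612 reads in the library labelled double KO, 5867 in Itch KO, 5987 in WWP2 KO, against 6776 in wild type. Its paralog Rpl22l1 had 741, 792, 854 and 809. Rpl22l1 made up 11.7%, 11.9%, 12.5% and 10.7% of the pair, and the exact intervals of WWP2 KO (11.7 to 13.3) and wild type (9.98 to 11.4) did not overlap. Rpl36al made up 39.4% of its pair with Rpl36a in the library labelled double KO and 39.8% in Itch KO, against 34.4% in WWP2 KO and 35.4% in wild type. Rpl36al itself was at -0.24 and -0.11 against wild type in the first 2 libraries, so the higher share went with fewer Rpl36a reads. Rpl7l1 made up 10.9% of its pair with Rpl7 in the library labelled double KO, 14.2% in Itch KO, 12.9% in WWP2 KO, against 13.0% in wild type, while Rpl7 was at -0.40, -0.15 and -0.16 against wild type in the library labelled double KO, Itch KO and WWP2 KO. Relative to wild type, the library labelled double KO had Rps4x at -0.36 and Rpl39 at -0.10. Rps27l held 93.8% to 95.9% of its pair, with 32 to 50 reads on the Rps27 row. Since that row cannot be read as the level of the Rps27 mRNA, this share cannot be read as a balance.

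Other parts of the translation machinery were read beside the members. The 76 mitochondrial ribosomal protein genes, which are nuclear genes for a separate ribosome, had a median of -0.25 relative to wild type in the library labelled double KO, where 33 were lower and 7 higher by the 25% rule (43.4% and 9.21% of the list, against 27.5% and 29.7% of all genes). Mrpl23 (-0.95) and Mrps5 (-0.86) were lowest, Mrpl33 (0.67) and Mrps16 (0.63) highest. The medians of this list were -0.14 in Itch KO and -0.13 in WWP2 KO against wild type. In Itch KO 7 were lower (9.21%, against 12.1% of all genes) and 0 higher (against 13.8%). In WWP2 KO 3 were lower (3.95%, against 2.46%) and 0 higher (against 4.35%). Of 20 elongation factor and other TOP mRNAs listed, 18 were tested. Their median was -0.24 in the library labelled double KO, with 8 lower (44.4%, against 27.5% of all genes) and 0 higher (against 29.7%), from Npm1 (-1.07) and Nap1l1 (-0.85) to Eef2, the translocase (0.12), and Snhg8 (0.15). In Itch KO and WWP2 KO their medians were -0.08 and -0.14 with 0 past the rule. The shares of all genes were 13.8% higher and 12.1% lower in Itch KO, and 4.35% and 2.46% in WWP2 KO.

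Ribosome biogenesis genes had the lowest median of the lists in the library labelled double KO. There 28 of 30 were lower than in wild type (93.3%, against 27.5% of all genes) and 0 higher (against 29.7%), with a median of -0.87, led by Utp20 (-1.50), a factor of small subunit assembly, and Polr1b (-1.35), a subunit of RNA polymerase I. Bop1 (-0.32) and Ubtf (-0.14) were at the other end. In Itch KO their median was 0.08 and in WWP2 KO -0.09, with 0 genes past the rule in either. Of all genes, 13.8% were higher and 12.1% lower in Itch KO, and 4.35% and 2.46% in WWP2 KO. The 50 tested genes with an Eif symbol, taken by name, are mostly initiation factors. They include 3 Argonaute genes, of which Eif2c1 (-0.94) was lower, and Eif4ebp1, Eif4ebp2 and Eif4ebp3, which encode inhibitors of initiation. This Eif list had a median of -0.36 in the library labelled double KO. There 28 were lower (56%, against 27.5% of all genes) and 2 higher (4%, against 29.7%). Eif4ebp1 (-2.22), encoding an inhibitor of initiation that mTORC1 switches off, and Eif2b3 (-0.98) were lowest, Eif4e3 (1.70) and Eif1b (0.40) highest. The medians of the Eif list in Itch KO and WWP2 KO were 0.00 and -0.11. In Itch KO 2 were higher (4%, against 13.8% of all genes) and 2 lower (4%, against 12.1%). In WWP2 KO 1 was higher (2%, against 4.35%) and 1 lower (2%, against 2.46%). Of 19 regulators tested, 12 were lower (63.2%, against 27.5% of all genes) and 2 higher (10.5%, against 29.7%) in the library labelled double KO, median -0.38. Eif4ebp1, which is on this list too, with 334 reads in that library, 728 in Itch KO, 1019 in WWP2 KO, against 1457 in wild type, was lowest and Larp1 followed (-0.81). Mdm2 (0.49) and Rps6kb2 (0.41) were highest, and Myc had 11119, 22929, 15930 and 15294 reads in the same order of libraries. The regulator medians were 0.01 in both Itch KO and WWP2 KO.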

How the data were processed

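The deposited values were raw counts of reads per gene symbol, made by the authors and not normalized, in 1 table of 4 libraries. Per the submitters' processing notes, the tools were TopHat 1.4.1, Bowtie 1.0.0 and HTSeq 0.7.1 and the build mm9. The sources used here do not give the annotation, the strand setting or the treatment of reads that map to several places. Counts were scaled by TMM factors (0.983 to 1.03) with edgeR 4.0.16 in R 4.3.3; DESeq2 1.42.0 gave alternatives. Intervals came from scipy 1.17.1, tables from pandas 2.3.3 with numpy 2.4.6, and figures from matplotlib 3.10.9, all in Python 3.11.15. Folds carry exact conditional binomial 95% intervals. Genes with a mean of 10 or more reads were tested. The size rule and the edgeR test were tested on simulated data. Coding lengths came from GENCODE M21, names and promoters from RefSeq; 80 of 80 members matched, Rps3a and Rps4y2 by a synonym. Where a gene had several annotated starts, the first listed was used.

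The members, gene lists, motifs and the 25% line were chosen with earlier results of these data known. Genes named are the 6 highest and 6 lowest members in the library labelled double KO over wild type, the 4 at either end for each single knockout, those past 2-fold, the 3 symbols on either side of the read minimum, the 5 most read, a fixed set with known roles, paralog pairs, the 5 smallest p-values per direction, and the 2 highest and lowest genes of each other list; members named otherwise were chosen after their values were seen. A few genes that this rule takes are not reported here by name; they stay in every count and median.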

Additional observations from a re-analysis of the deposited data

How the results depend on the processing

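No paired analysis was possible because each genotype has a single library. The member medians kept their sign under every scaling, prior count and member list tried. Library totals moved them to -0.24 for the library labelled double KO over wild type, -0.055 over Itch KO and -0.12 over WWP2 KO. The all-gene medians of these comparisons moved up as well, from -0.01 to 0.06, from 0.05 to 0.12 and from -0.02 to 0.03. On that scale 21 members were lower for the library labelled double KO over wild type and 1 for it over Itch KO. WWP2 KO over wild type had 1 lower. DESeq2 size factors gave 4 lower for the library labelled double KO over Itch KO. At 1.5-fold 1 member was lower in the library labelled double KO over wild type, 1 over Itch KO and 0 over WWP2 KO, with 0 in each single knockout. The shares of all genes under these other scales and this line are not given here, so those counts have no background beside them. Without the 5 paralog symbols, members higher were 1 in each comparison of that library, members lower were 1 over Itch KO and 1 in WWP2 KO, and the shares of reads were 6.69%, 6.82%, 7.20% and 7.73%. The test by Itch label called 1 of 11197 genes with edgeR, 706 with DESeq2 and 5 with a WWP2 term; without the library labelled double KO, added after seeing the data, it called 1743 of 11017 genes and 1 member, Rpl36a, with the lone Itch KO library assumed to vary like the others. The cause was not tested. Few reads limit what can be said of Rpl39l, Rps27, Rps4y2, Rpl30 and Rpl34.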

Other observations

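Over the 73 members with 1000 or more reads, coding length and the log2 ratio of Itch KO to wild type had a Spearman rho of 0.39, with shorter genes lower, while in the other 4 comparisons the rho was -0.11 to 0.13. The points share libraries and scale factors, and other properties of short mRNAs were not examined. The members lay on 18 chromosomes, with 14 of them on chromosome 7.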
